A study of Drosophila melanogaster with 4 samples.

Results

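Odorant-binding proteins are small secreted carriers that bind odorants, pheromones and other hydrophobic molecules in the fluid around chemosensory neurons. In Drosophila melanogaster they are made largely by the support cells of olfactory and taste hairs, and single members are also known from glia, fat body and the male reproductive tract. Most sit in the genome in groups of neighbouring genes, and a symbol such as Obp99a gives the cytological position followed by a letter. The genes described here were all rows of the deposited table whose symbol is Obp followed by such a number and letters. There were 51 of them among 17137 genes.

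The RNA came from nuclei of fly heads, purified by INTACT, a pull-down of nuclei that carry a tag on their membrane. The tag, UNC84 fused to GFP and placed under UAS, was present in all the flies, which were 10 days old and untreated. It was driven by split-Gal4, which splits Gal4 into parts made from separate promoters, so that a cell is labelled where both promoters are active. In the VAChT:VGlut genotype these were the promoters of the vesicular transporters for acetylcholine and for glutamate, and in the VAChT:VGAT genotype those for acetylcholine and for GABA. Each genotype had 2 libraries of poly(A) RNA, made from pooled heads, and the sex of the flies is not given in the sources used here. The comparison of the genotypes asks how RNA differs between both classes of labelled nuclei. Neither input RNA nor an untagged control was analysed here, so no value below measures enrichment over the whole head.

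The libraries held 1490390 to 2556988 counts. The genotype labels were checked on the driver genes. VGlut had 379 ± 1.41 CPM (counts scaled to a library total of 1000000, SD, n = 2) in VAChT:VGlut and 255 ± 18.3 in VAChT:VGAT, while VGAT had 175 ± 10.5 and 164 ± 5.01, so the VGAT gene was not higher in the genotype it drives. Gad1, which encodes the enzyme that makes GABA, was higher in that genotype, with 1240 ± 9.02 CPM against 663 ± 17.0 in VAChT:VGlut (edgeR adjusted p = 2.33e-28). The labelled cell type is neuronal nuclei. All 6 neuronal markers were present, with a summed level of 7501 to 9040 CPM over the libraries. RNA of non-neuronal cells and of photoreceptors was abundant too. The 10 fat body genes summed to 28590 to 35280 CPM and the 6 photoreceptor genes to 22870 to 28370. Most of the fat body sum lay in Yp1, Yp2 and Yp3, with means of 11330, 6933 and 5340 CPM in VAChT:VGlut. Most of the photoreceptor sum lay in ninaE, with a mean of 16100 CPM there. The 11 glial genes summed to 2344 to 2991. In such bulk samples, fewer cells of a type and less RNA per cell cannot be told apart.

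The 51 genes fell into a few abundant members and a long tail. Reads were found for 32, and 25 had a read in all 4 libraries. The other 19 had no reads in any library, which is 37.3% of the members against 30.0% of all genes in the table. They were Obp19a, Obp22a, Obp46a, Obp47a, Obp47b, Obp50a, Obp50b, Obp50c, Obp50d, Obp51a, Obp56i, Obp57d, Obp58b, Obp58c, Obp58d, Obp59a, Obp73a, Obp84a and Obp93a. No reads in a library allows a level of up to 3 counts, or 1.19 to 1.99 CPM depending on the library. The full distribution is drawn in the plot of reads per gene.

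**Figure D1:**
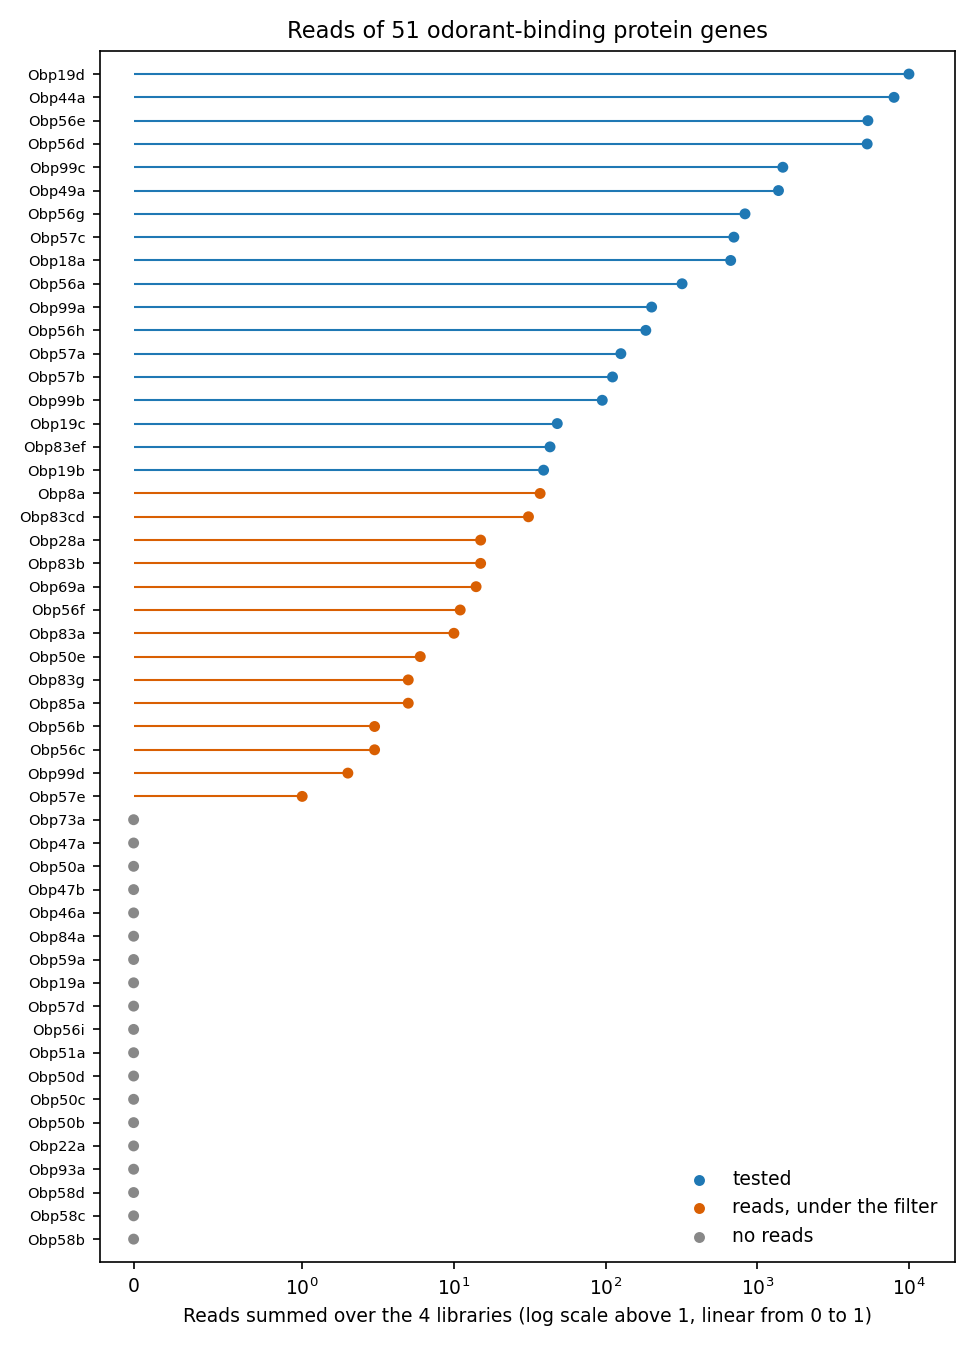
Reads of each of the 51 odorant-binding protein genes summed over the 4 libraries (horizontal axis, logarithmic above 1 read), 1 row per gene, coloured by whether the gene was tested, had reads but was under the filter, or had none. The range runs from 9980 reads for Obp19d to 0 for 19 genes, with 39 reads in the least abundant tested gene and 37 in the most abundant untested gene.

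For 3 of the 19, the lack of reads says nothing about expression. Obp50b and Obp50c (both dm6 chromosome 2R, 14371186 to 14373006, plus strand) are annotated with the same exons. Obp57d (2R, 20548368 to 20550117, minus strand) is known in flies for its part with Obp57e in the choice of plants to lay eggs on. All exon bases of Obp57d lie within exons of the cuticle gene Cpr57A on the same strand. None of these 3 has an exon base of its own (0% each), and the counting program leaves out reads that fall on more than 1 gene unless told otherwise, which the file header does not do. The other 16 genes without reads have exon bases of their own.

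The classical antennal members were at or near the limit of detection. This group, set from general knowledge, holds Obp19a, Obp28a, Obp59a, Obp69a, Obp83a, Obp83b and Obp84a, all known from olfactory sensilla or other sense organs of the antenna. Together the 7 genes had 54 reads in the 4 libraries, 3 of them had none, and none passed the filter on low counts. Obp83a and Obp83b, abundant proteins of pheromone-sensing and other trichoid hairs, had 3, 4, 2 and 1 reads and 5, 4, 4 and 2 reads in VAChT:VGlut replicates 1 and 2 and VAChT:VGAT replicates 1 and 2. In the same order Obp28a had 2, 4, 8 and 1 reads, and Obp69a, linked to responses to a male pheromone, had 0, 4, 3 and 7. These counts are too low to compare the genotypes. Obp59a, needed for sensing humidity, and Obp84a and Obp19a were the members without reads. The table lists the pheromone-binding protein Obp76a under its name lush, outside the naming rule, and it had 3, 6, 2 and 1 reads.

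The abundant members were others. Levels were compared between genes as TPM, which divides counts by exonic length and scales each library to 1000000. By mean TPM the leading gene was Obp56e, a member known from the male reproductive tract, with 2439 and 2365 TPM in VAChT:VGlut against 4199 and 3909 in VAChT:VGAT. It was number 16 of all 17137 genes by this measure. Obp19d, known from taste organs and the antenna, had 2393, 2385, 3514 and 3228 TPM in the same order of libraries and was number 21. Obp44a, reported from glia of the fly brain, had 1884, 1847, 2907 and 2819 and was number 40. Obp56d, known from several chemosensory organs of the head, had 1529, 1394, 2322 and 2087 and was number 62. All 4 of these genes had their higher values in both VAChT:VGAT libraries. Obp99c and Obp49a followed with mean levels of 689 and 566 TPM, and the remaining tested members lay between 15.4 and 514.

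These 4 leading genes held 79.1% and 79.4% of all odorant-binding protein reads in VAChT:VGlut against 84.3% and 83.5% in VAChT:VGAT. All 51 genes together took 0.360% (exact 95% binomial interval 0.352 to 0.369) and 0.344% (0.337 to 0.351) of the reads of the VAChT:VGlut libraries. In the VAChT:VGAT libraries they took 0.567% (0.556 to 0.577) and 0.530% (0.518 to 0.542). These intervals cover counting error only. The group means were 0.352% ± 0.0118 and 0.548% ± 0.0260 (SD, n = 2 each), a ratio of 1.56, and both VAChT:VGAT libraries lay above both VAChT:VGlut libraries. Without the 4 leading genes the share was 0.0754% and 0.0709% in VAChT:VGlut and 0.0890% and 0.0877% in VAChT:VGAT, so most of the difference in reads lay in those 4.

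The genotypes were compared gene by gene in the fit across all genes. Of the 51 members, 18 passed the filter and were tested, and 10 of these had an edgeR quasi-likelihood adjusted p-value under 0.05, against 11.8% of all 8246 genes tested. Lower in VAChT:VGlut were 8 members, against 5.54% of all genes tested, and higher were 2, against 6.22%. The median log2 fold change (VAChT:VGlut over VAChT:VGAT) was -0.41 over the 18 tested members and -0.01 over all genes tested. In 14 of the 18 the libraries of the genotypes did not overlap, against 49.3% of all genes tested. The normalised counts behind this comparison are shown in the plot of CPM by library.

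**Figure D2:**
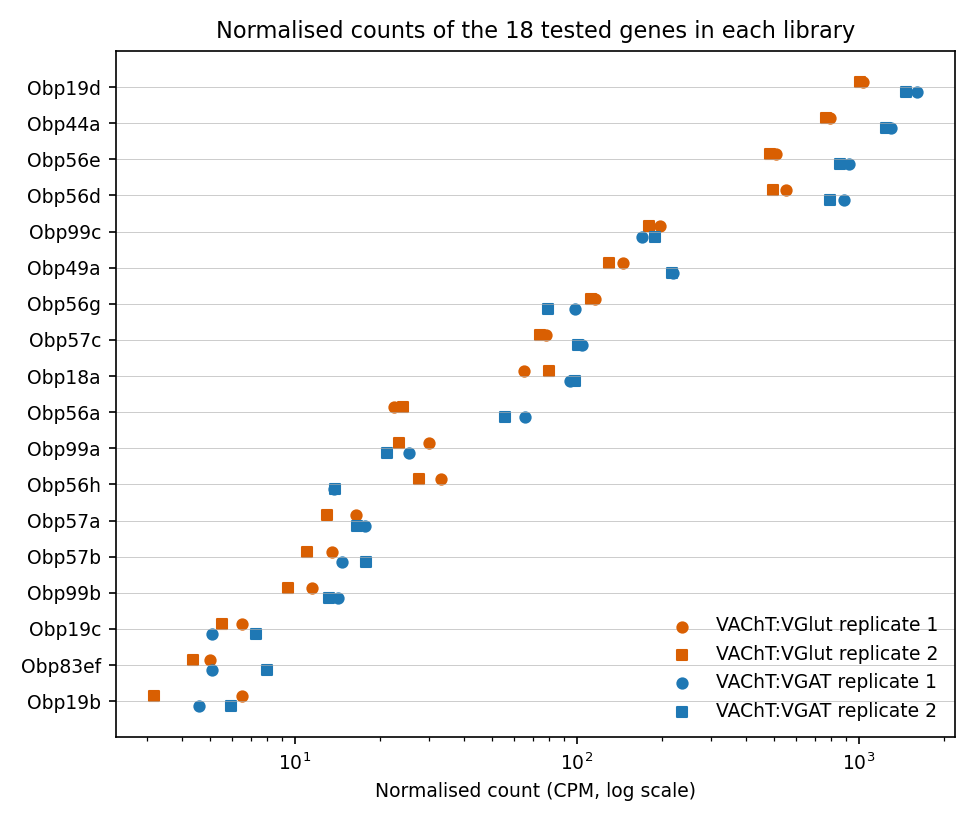
Normalised counts (CPM, logarithmic axis) of the 18 tested odorant-binding protein genes in each library, with colour for the genotype and symbol shape for the replicate number. In the 4 most abundant genes both VAChT:VGAT libraries lie to the right of both VAChT:VGlut libraries, while Obp56h and Obp56g show the opposite order and Obp99c and Obp99a overlap.

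Odorant-binding protein genes are short, and in these libraries short genes tended to be lower in VAChT:VGlut. The tested members had 495 to 1101 exonic bases, with a median of 657 against 2319 for all genes tested. Among the 1138 tested genes in that range of lengths the median log2 fold change was -0.16, and 11.8% were called lower in VAChT:VGlut. After removal of the length trend, 9 members were called, 6 lower and 3 higher, and the median over the 18 was -0.24. In that fit 631 of all 8246 genes tested were called, 326 lower in VAChT:VGlut and 305 higher.

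The 4 abundant genes were each lower in VAChT:VGlut by 1.51-fold to 1.81-fold. Obp56e (FBgn0034471, dm6 2R, 19712345 to 19712932, plus strand) had 508 and 485 CPM in VAChT:VGlut and 926 and 858 in VAChT:VGAT, which gave a log2 fold change of -0.85 with SE 0.05 (edgeR adjusted p = 8.15e-24). Obp44a (FBgn0033268, 2R, 8134170 to 8135315, minus strand) had 794 and 767 CPM against 1297 and 1251, which gave a log2 fold change of -0.71 with SE 0.04 (edgeR adjusted p = 1.21e-23). Its VAChT:VGAT libraries were thus 1.64-fold higher, and the spread within a genotype was far smaller than this gap. Obp56d (FBgn0034470, 2R, 19702924 to 19703915, minus strand) had 552 and 496 CPM against 888 and 794, which gave a log2 fold change of -0.70 with SE 0.05 (edgeR adjusted p = 2.04e-18). Obp19d (FBgn0011280, X, 20419613 to 20420979, plus strand) had 1032 and 1013 CPM against 1605 and 1466, which gave a log2 fold change of -0.59 with SE 0.04 (edgeR adjusted p = 1.46e-20). None of the 4 overlapped between genotypes, and each kept its call when any single library was left out. An antisense RNA, asRNA:CR44509, covers 84.4% of the exon bases of Obp56e, but reads were counted by strand.

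The largest difference was that of the less abundant Obp56a (FBgn0034468, 2R, 19697723 to 19698508, plus strand). Its level was 22.5 and 24.1 CPM in VAChT:VGlut and 65.7 and 55.7 in VAChT:VGAT, or 2.61-fold more in the latter (log2 change -1.39, SE 0.18, edgeR adjusted p = 3.89e-09). Obp49a (FBgn0050052, 2R, 12690059 to 12690955, minus strand), which acts in taste hairs where it lets bitter compounds suppress the response to sugar, had 146 and 130 CPM against 219 and 218 (log2 change -0.67, SE 0.08, edgeR adjusted p = 2.95e-09). Both kept their calls without any single library. The calls of Obp57c and Obp18a were closer to the threshold. Obp57c (FBgn0034509, 2R, 20503584 to 20504202, plus strand) had 77.6 and 74.0 CPM against 105 and 101 (log2 change -0.45, SE 0.12, edgeR adjusted p = 0.00527). Obp18a (FBgn0030985, X, 19135081 to 19135868, minus strand) had 65.1 and 79.9 CPM against 94.8 and 98.8 (log2 change -0.40, SE 0.12, edgeR adjusted p = 0.0219). Without VAChT:VGlut replicate 2 or VAChT:VGAT replicate 1 the edgeR adjusted p of Obp57c was 0.109 or 0.0771. That of Obp18a was 0.289, 0.076 or 0.105 without VAChT:VGlut replicate 1, VAChT:VGAT replicate 1 or VAChT:VGAT replicate 2. After removal of the length trend neither was called (edgeR adjusted p = 0.22 and 0.312).

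A pair of members was higher in VAChT:VGlut. Obp56h (FBgn0034475, 2R, 19815554 to 19816204, plus strand), known from males, where lowering it changes mating behaviour and cuticular hydrocarbons, had 33.0 and 27.7 CPM in VAChT:VGlut and 13.8 and 13.9 in VAChT:VGAT. This is 2.17-fold, or 1.12 on the log2 scale (SE 0.24, edgeR adjusted p = 0.000414), and the call held without any single library. Obp56g (FBgn0034474, 2R, 19783484 to 19784043, minus strand), a seminal fluid protein needed for the mating plug, had 116 and 112 CPM against 98.9 and 78.9 (log2 change 0.34, SE 0.11, edgeR adjusted p = 0.035). The call of this smaller difference was lost without any of 3 libraries. Its edgeR adjusted p was 0.156, 0.145 or 0.405 without VAChT:VGlut replicate 1, VAChT:VGlut replicate 2 or VAChT:VGAT replicate 2, and 0.0698 with library size alone as the scaling.

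**Figure D3:**
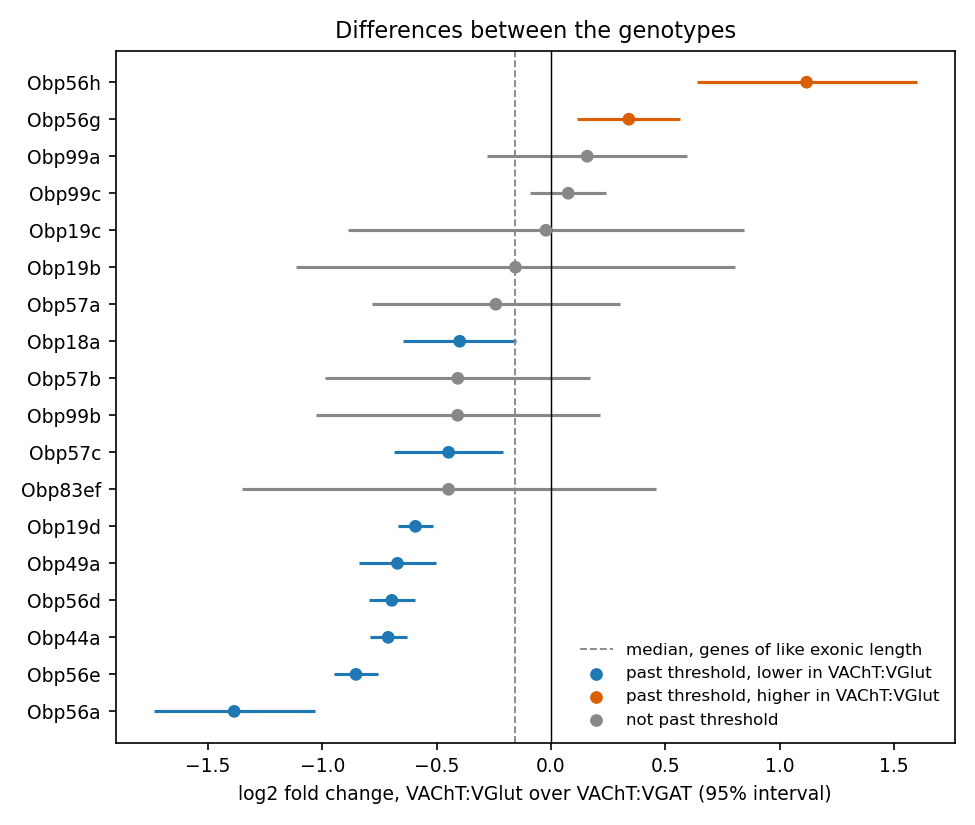
Log2 fold change of each tested odorant-binding protein gene (point, VAChT:VGlut over VAChT:VGAT) with its 95% interval (line), coloured by call, with 2 libraries per genotype. The dashed line marks the median of -0.16 over tested genes of like exonic length, and the values run from -1.39 for Obp56a to 1.12 for Obp56h.

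The other 8 tested members were not past the threshold, and most had too few reads for a narrow interval. Obp99c was the exception in depth. It had 198 and 181 CPM in VAChT:VGlut and 170 and 190 in VAChT:VGAT, and its log2 fold change of 0.08 had a 95% interval of -0.09 to 0.24. This interval does not reach the values of the 4 abundant genes. After removal of the length trend Obp99c was called higher in VAChT:VGlut with a log2 value of 0.25 (edgeR adjusted p = 0.0485). Obp99a had 30.0 and 23.4 CPM against 25.5 and 21.2, and Obp99b, also known as tsx and described from the head fat body of males, had 11.5 and 9.50 against 14.3 and 13.3. In the remaining 5, namely Obp57a, Obp57b, Obp19b, Obp19c and Obp83ef, the log2 fold changes ran from -0.45 to -0.02, and each interval included 0. Of the 14 members with reads that were not tested, Obp8a had 37 reads in all and Obp83cd 31, and the others had 1 to 15. Obp83cd had 4 and 5 reads in VAChT:VGlut against 15 and 7 in VAChT:VGAT.

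Neighbouring genes differed in direction at position 56. This largest group holds 9 genes over 171 kb of chromosome 2R. In genomic order Obp56a, Obp56d and Obp56e, which start within 14.6 kb of each other, were lower in VAChT:VGlut. Obp56g and Obp56h, which start 85.8 and 118 kb from Obp56a, were higher. The 95% intervals of the former 3 reached no higher than -0.60, and those of the latter 2 no lower than 0.12. The other 4 genes of the group, Obp56b, Obp56c, Obp56f and Obp56i, had 3, 3, 11 and 0 reads, although Obp56f begins 462 bases after the end of Obp56e on the same strand.

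**Figure D4:**
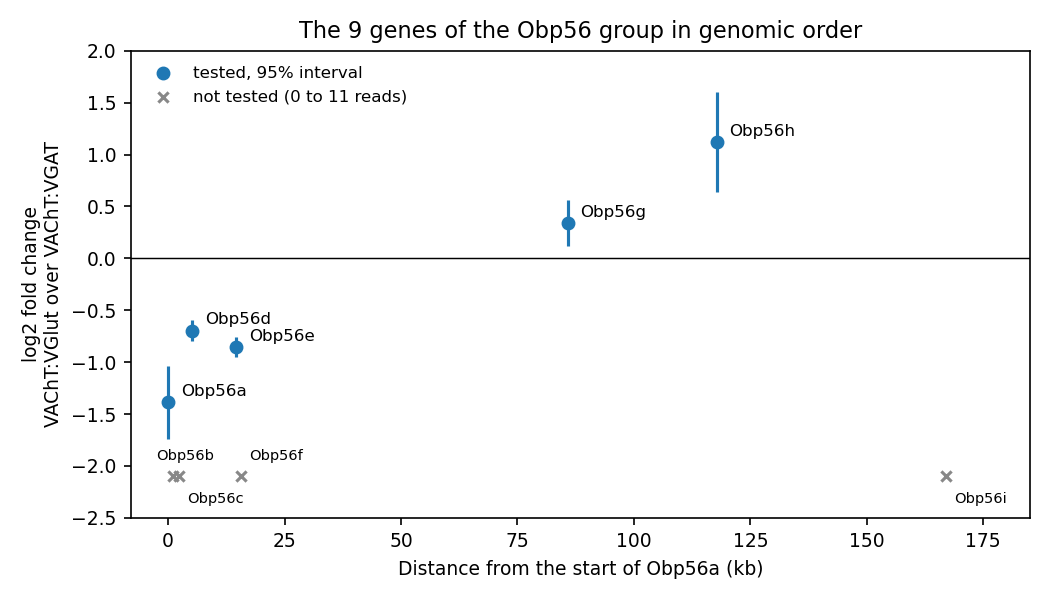
Log2 fold change (VAChT:VGlut over VAChT:VGAT, point, with its 95% interval as a line) of the tested genes of the Obp56 group against the distance of their start from that of Obp56a in kb, with crosses at the foot for the 4 genes that were not tested. The 3 genes within 14.6 kb lie below 0, and Obp56g and Obp56h lie above it.

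Levels also differed widely between neighbours on the X chromosome. Obp19a, Obp19b, Obp19c and Obp19d follow each other with gaps of 211, 108 and 648 bases, and they had 0, 39, 48 and 9980 reads in all. The 3 of them that were tested had log2 fold changes of -0.16, -0.02 and -0.59, of which that of Obp19d was called. Obp57c, Obp57b and Obp57a lie on 1 strand with gaps of 48 and 15 bases, and their mean levels were 399, 43.3 and 71.3 TPM. Their log2 fold changes were -0.45, -0.41 and -0.24, of which that of Obp57c was called. At position 83, the 5 genes had 5 to 43 reads each. At position 99, Obp99c, Obp99a and Obp99b had mean levels of 689, 103 and 50.8 TPM, and Obp99d had 2 reads. None of the 3 tested genes at position 99 was called by edgeR, DESeq2 or limma-voom. Of these 3, 0 had an unadjusted edgeR p under 0.05, against 1829 of all 8246 genes tested. By arm, 29 of the 51 genes lie on 2R, 12 on 3R, 6 on X, 2 on 2L and 2 on 3L.

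The groups set from known sites of expression were as uneven. Of 7 members known from the male reproductive tract, Obp56e was lower in VAChT:VGlut and Obp56g higher, Obp8a and Obp56f had too few reads to test, and Obp22a, Obp51a and Obp56i had none. The taste group, set from general knowledge, held only 3 members, and Obp19d, also known from taste organs, was not in it. Of these 3, Obp49a was called, Obp57e had 1 read, and Obp57d could not receive reads.

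Genes of the receptor side of olfaction had 0 to 199 reads each, and none was called. The highest were Snmp2 with 199 reads and Snmp1 with 132. Orco, the co-receptor of most odorant receptors, had 11 and 13 reads in VAChT:VGlut and 12 and 8 in VAChT:VGAT. Ir25a, a co-receptor of ionotropic receptors, had 9 and 15 against 15 and 16. Of the 9 genes on this list 6 were tested, with a median log2 fold change of -0.29. None was called by edgeR, DESeq2 or limma-voom, against 11.8% of all genes tested in edgeR. An unadjusted edgeR p under 0.05 was found for 1, Snmp2 (log2 fold change -0.49, 95% interval -0.92 to -0.05), against 1829 of all 8246 genes tested. The carbon dioxide receptor gene Gr63a had no reads, its partner Gr21a had 4 and the co-receptor gene Ir8a had 1.

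A list of other secreted carriers and enzymes, set from general knowledge, held some abundant genes. Of 17 listed, 16 were in the table and 7 were tested. Against 11.8% of all genes tested, 1 of these 7 was called. This was Npc2b, of a family of sterol-binding proteins, with 138 and 126 CPM in VAChT:VGlut and 227 and 232 in VAChT:VGAT (log2 change -0.80, SE 0.08, edgeR adjusted p = 7.82e-12). The median log2 fold change of the 7 was -0.27, and 6 were below 0. An unadjusted edgeR p under 0.05 was found for 4, Npc2b, Npc2h, Est-6 and antdh. All 4 had log2 fold changes below 0, but the libraries of the genotypes overlapped for antdh. Of all 8246 genes tested, 1829 had such a p and 4218 were below 0. Npc2a, a relative of Npc2b, was tested with a log2 fold change of 0.01. The antennal genes Os-C, a5 and a10 had 1, 1 and 3 reads. Of the pair of support-cell genes, nompA had 30 reads and sv 432, and neither was called by edgeR, DESeq2 or limma-voom or had an unadjusted edgeR p under 0.05.

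Cell type markers moved in the same comparison, in which 5.54% of all genes tested were called lower in VAChT:VGlut and 6.22% higher. Of the fat body list 9 of 10 genes were tested and 7 were lower in VAChT:VGlut, with a median log2 fold change of -0.26 and a summed level of 28590 to 29230 CPM against 35190 to 35280. Its members with the smallest p-values were Yp1, Yp2 and Yp3 (log2 fold changes -0.26, -0.35 and -0.39), while Fbp1 had 1 read. Of the glial list 6 of 11 were lower and 0 higher, with a median of -0.22 and summed levels of 2344 to 2411 against 2974 to 2991 CPM. Gs2, alrm and Gat led it (-0.47, -0.79 and -0.53). Of the haemocyte list 2 of 3 were lower, Hml (-0.53) and NimC1 (-0.87), with summed levels of 126 to 131 against 161 to 173 CPM. The call of Hml was lost without VAChT:VGAT replicate 1 (edgeR adjusted p = 0.125) and in DESeq2 (adjusted p = 0.0761). That of NimC1 was lost without VAChT:VGlut replicate 1 or VAChT:VGAT replicate 1 (edgeR adjusted p = 0.182 and 0.291), and DESeq2 gave it no adjusted p. All 6 neuronal genes were higher, with para, nSyb and brp at 0.35, 0.21 and 0.26, as were all 6 photoreceptor genes, with ninaE, ninaC and trp at 0.35, 0.43 and 0.31. After removal of the length trend para was at 0.16, and brp, at 0.09, was not called (edgeR adjusted p = 0.226). Over all companion lists, driver genes included, higher calls were 9 in that fit against 13 in the main fit. Lower calls were 17 in both. DESeq2 called 5 fat body, 4 glial, 0 haemocyte, 5 neuronal and 5 photoreceptor genes of these lists, and 370 of all 8246 genes tested. The part of these cell types in the values of the odorant-binding protein genes was not tested.

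**Figure D5:**
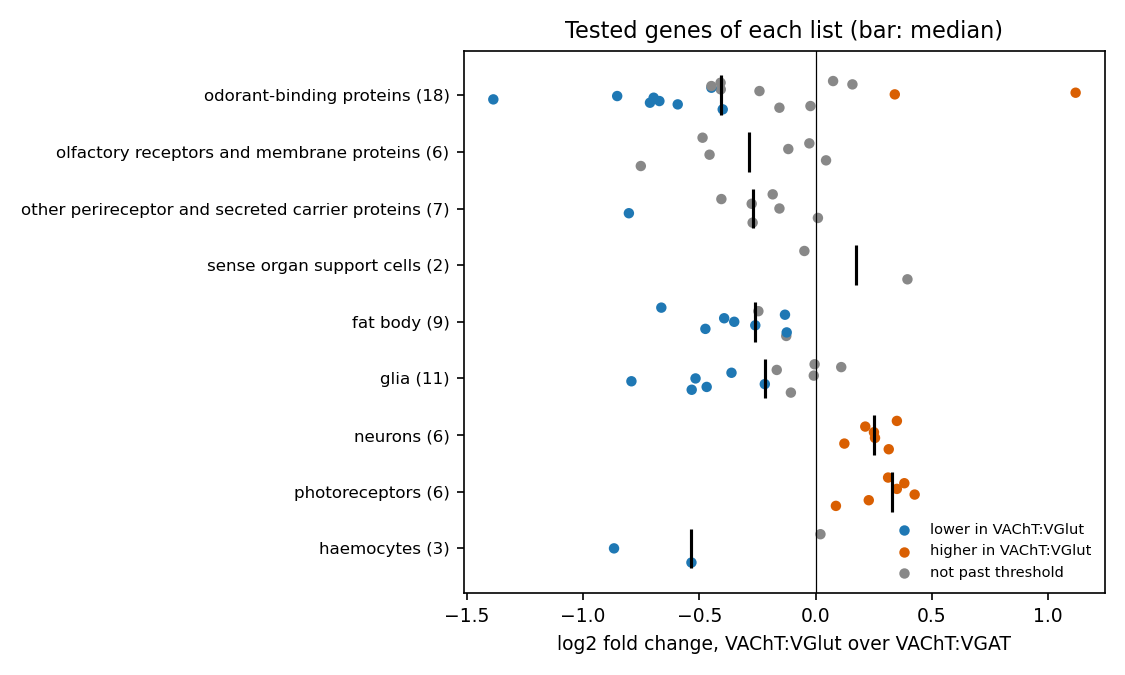
Log2 fold change (VAChT:VGlut over VAChT:VGAT) of each tested gene of the lists, 1 point per gene, coloured by call, with a bar at the median and the number of tested genes in brackets. The 18 odorant-binding protein genes have a median of -0.41 and spread from -1.39 to 1.12, while the 6 neuronal and 6 photoreceptor genes all lie above 0.

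All these calls rest on the small spread between the 2 libraries of a genotype, a common biological coefficient of variation of 2.18%, and separate collections of flies for these libraries are not stated in the labels, so the p-values measure only the spread between these samples. With that coefficient fixed at 0.2 instead, 1 member was called, Obp56a (edgeR likelihood ratio adjusted p = 0.0177), and 24 of all 8246 genes tested. DESeq2 called 5 members, all lower in VAChT:VGlut, and gave no adjusted p for 9 of the 18, Obp56a and Obp56h among them. Over all 8246 genes tested it called 370, of which 144 were lower in VAChT:VGlut. The DESeq2 adjusted p of Obp57c, Obp18a and Obp56g was 0.12, 0.209 and 0.232.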

How the data were processed

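Nuclear poly(A) RNA from heads was sequenced in 2 libraries per genotype. The authors deposited raw counts of read pairs per gene. Per the file headers, these were made with featureCounts 1.5.1 on the reverse strand over exons of the dm6 refGene annotation, and exonic length is from the same table. Per the submitters' processing notes, fastp, STAR and DESeq2 were also used. Removal of duplicates is not given in the sources used here.

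Low genes were removed with filterByExpr (count 10, total 15), and the rest were tested across all genes with edgeR 4.0.16 (R 4.3.3), TMM scaling, the quasi-likelihood F test with genotype as the only term, and Benjamini-Hochberg adjustment at 0.05. CPM and TPM were computed from the deposited counts. The fits were tested on simulated data. DESeq2 1.42.0, limma-voom (limma 3.58.1), other scalings and filters, a replicate block and each left-out library were alternatives. Spans of 51 members matched Ensembl genes on the same strand.

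Members and lists were chosen with earlier results of these data known. By rule, called members and the 6 of highest TPM have full values, and others ranges and counts. Classes by cysteine number were not made, since protein sequences were not used here. PebIII was not among the symbols of the table. Libraries of a genotype differed by more than counting noise (chi-square over degrees of freedom 1.22 and 1.19).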

Additional observations from a re-analysis of the deposited data

How the results depend on the processing

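The count of 10 called members was 9 or 10 with other scalings, other filters, limma-voom and symbols with 1 letter only. It was 9 after removal of the length trend (chosen after seeing the data, 8 of its 9 calls shared). It was 5 with DESeq2 and 1 with a fixed biological coefficient of variation of 0.2, where 0 of the 30 called companion genes were left. Over all 8246 genes tested, 970 were called in the main fit, 370 with DESeq2 and 24 with that fixed coefficient. That setting also replaces the quasi-likelihood test by a likelihood ratio test, and the cause was not tested. Over all genes, the other scalings called 987 (DESeq2 size factors) and 973 (library size alone), and limma-voom 960. The other filters called 967 of 12002 (no filter) and 953 of 5121 (mean of at least 50 counts). In the fits without 1 library, the median log2 fold change of the tested members ran from -0.54 to -0.33. The replicate block gave 10 members, all shared, and called 1049 of all 8246 genes tested. The deviations of the replicate 1 libraries from the means of their genotypes had a correlation of -0.03 across genes. With 2 libraries per genotype, and deviations close to counting noise, this cannot decide whether same-numbered libraries belong together. The labels do not say so either.

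The difference in the summed share of reads (VAChT:VGlut minus VAChT:VGAT) was -0.196 percentage points, -0.142 without Obp19d, -0.218 with totals that leave out the 20 most abundant genes, and -0.215 to -0.178 without 1 library. The number of members without reads was 19 or 20 without 1 library, and 23 had at most 3 reads.

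No called member changed direction under the alternatives that gave it a value. Obp56h was not tested with a mean of at least 50 counts, and DESeq2 gave no adjusted p for Obp56a and Obp56h. Among genes that were not called, Obp19c took the other sign without VAChT:VGlut replicate 2 (0.10), without VAChT:VGAT replicate 2 (0.23) and after removal of the length trend (0.12). Obp19b did so in the same 3 settings (0.32, 0.0228 and 0.0221). Obp99c did so without VAChT:VGAT replicate 1, Obp99a without VAChT:VGlut replicate 1, and VAChT in 3 settings (-0.0036, -0.0137 and -0.0594). Over the fits without 1 library, Obp19c ranged from -0.29 to 0.23, Obp19b from -0.70 to 0.32, Obp99c from -0.01 to 0.15 and Obp99a from -0.0129 to 0.35. At 3 counts, the limit of a library was 1.19 to 1.99 CPM, and 14 members with reads were too low to test.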
